A study of Homo sapiens with 4 samples.

Results

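The 10 genes described here encode fibronectin and the matrix glycoproteins that surround it, with one enzyme that cross-links them: FN1, TNC, THBS1, THBS2, SPARC, TGFBI, POSTN, FBN1, FBN2 and TGM2. They were chosen by name, as the rows of the count table that carry these symbols, and each symbol matched 1 row of the 63241 in the table. All 10 had at least 1 CPM (counts per 1000000 counts) in 1 or more libraries, a filter that left 16099 genes in all. POSTN passed it only through the TGF-β library, so its difference from the other libraries was fixed by the filter. RNA was sequenced from LX-2, an immortalised human line derived from hepatic stellate cells, in 4 libraries with 1 library per group. All cells were first starved in 0.5% serum for 24 h. The groups were TGF-β (20 ng/mL) with BDS4 (5 µM), TGF-β with RVX-208 (5 µM), TGF-β alone, and a control that the labels give no TGF-β. The name of the TGF-β library holds DMSO and that of the control does not, so vehicle and TGF-β cannot be told apart in that comparison. BDS4 is a code name, in a study on covalent inhibitors of the first bromodomain of BET proteins, and RVX-208 (apabetalone) is a BET inhibitor that prefers the second bromodomain.

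Fibronectin is secreted as a soluble protein and pulled into fibrils by integrins at the cell surface, and the fibrils serve as a scaffold on which collagens and other matrix proteins are laid down. Matricellular proteins such as tenascin, thrombospondins, SPARC and periostin sit in this matrix and change how cells attach to it and respond to growth factors. Fibrillins build microfibrils, which hold latent TGF-β in store through its binding proteins. In liver injury, stellate cells that have turned into myofibroblasts under TGF-β are a main source of this scar matrix.

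The promoter windows of the members that the results turn on are shown because FN1, THBS1 and TGFBI were the abundant members that TGF-β raised most, TNC was the abundant member lowest with BDS4 relative to TGF-β, and THBS2 is a paralogue of THBS1 that TGF-β did not raise. Windows run from 250 bases before to 50 bases after the RefSeq start (GRCh38.p14), and 9 of the 10 members matched by symbol, all but TGM2. They lie at chr2:215436019-215436318 (FN1, minus strand), chr15:39580829-39581128 (THBS1, plus strand), chr6:169253797-169254096 (THBS2, minus strand), chr9:115118108-115118407 (TNC, minus strand) and chr5:136028738-136029037 (TGFBI, plus strand). Each is printed in the direction of transcription, and capitals mark matches on either strand to CAGAC (the core of a SMAD-binding element), TGACGTCA (a cAMP response element), TGANTCA (an AP-1 site), TATAA and CCAAT.
FN1: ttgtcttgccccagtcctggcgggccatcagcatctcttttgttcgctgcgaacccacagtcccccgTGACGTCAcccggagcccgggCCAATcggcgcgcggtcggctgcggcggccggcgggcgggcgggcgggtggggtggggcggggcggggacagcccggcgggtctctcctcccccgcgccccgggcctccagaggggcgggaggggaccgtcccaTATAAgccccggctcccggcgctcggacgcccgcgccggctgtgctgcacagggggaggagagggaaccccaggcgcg
THBS1: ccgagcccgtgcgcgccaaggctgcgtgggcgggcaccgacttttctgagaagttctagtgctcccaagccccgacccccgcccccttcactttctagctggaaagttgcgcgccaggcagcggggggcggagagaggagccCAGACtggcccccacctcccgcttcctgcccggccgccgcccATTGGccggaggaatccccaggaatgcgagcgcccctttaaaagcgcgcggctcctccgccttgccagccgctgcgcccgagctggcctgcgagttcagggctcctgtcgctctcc
THBS2: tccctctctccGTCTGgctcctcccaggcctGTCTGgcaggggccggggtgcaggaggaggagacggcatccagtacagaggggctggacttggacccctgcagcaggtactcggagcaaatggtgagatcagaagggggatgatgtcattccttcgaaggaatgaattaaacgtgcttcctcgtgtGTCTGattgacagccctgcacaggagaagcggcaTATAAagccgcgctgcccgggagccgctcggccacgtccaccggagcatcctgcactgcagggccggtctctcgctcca
TNC: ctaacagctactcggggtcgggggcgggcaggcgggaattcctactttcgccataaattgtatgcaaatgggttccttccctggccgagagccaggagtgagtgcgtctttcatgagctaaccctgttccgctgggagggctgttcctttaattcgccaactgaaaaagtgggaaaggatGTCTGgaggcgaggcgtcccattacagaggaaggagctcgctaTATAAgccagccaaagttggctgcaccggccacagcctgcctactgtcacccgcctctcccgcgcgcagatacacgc
TGFBI: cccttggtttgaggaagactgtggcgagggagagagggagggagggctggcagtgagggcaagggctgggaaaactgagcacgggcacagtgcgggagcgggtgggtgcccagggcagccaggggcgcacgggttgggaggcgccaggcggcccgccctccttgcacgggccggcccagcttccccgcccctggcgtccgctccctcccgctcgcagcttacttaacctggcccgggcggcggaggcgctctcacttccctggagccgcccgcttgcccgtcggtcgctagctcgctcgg

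In FN1, TGACGTCA began at position -183 from the start and TATAA at -28. This 8-letter element was found in the FN1 window and in no other member window, and in 1.85% of the 35116 windows in the RefSeq table. TATAA was also found in TNC (at -27), THBS2 (at -29) and POSTN, so that 4 of 9 member windows held it, against 20.4% of all windows. CAGAC was found in 5 of 9 member windows (TNC, THBS1, THBS2, SPARC and POSTN) and in 45.3% of all windows, and THBS2 held 3 copies while FN1 and TGFBI held none. CCAAT was found in 3 of 9 (FN1, THBS1 and FBN2) and in 34.6% of all, and TGANTCA in POSTN alone and in 7.71% of all. No match of one motif overlapped a match of another in the member windows. Both THBS1 and THBS2 held CAGAC, and whether any match bears on the levels was not tested. The matches describe letters in these windows and no binding was measured.

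Library totals ranged from 17022369 to 22503094 counts. Values below are CPM scaled by TMM factors. For the 9 members other than POSTN, which had between 1533 and 245984 counts per library, the 95% exact Poisson interval reached from 0.395% to 5.04% of the value to either side. These intervals, and those given with ratios, cover counting error only, and with 1 library per group no difference could be compared with the spread between cultures. A member is said to have risen or fallen where 2 libraries differed at least 2-fold and the 95% conditional exact interval of the ratio excluded 1, which is a rule of size and no test. Of the stellate cell markers fixed as a list of 8, between 6 and 7 had over 3 counts, with LRAT at 0 counts in all 4 libraries and DES at 0 in all but the BDS4 library. They summed to 4431 CPM with BDS4, 7199 with RVX-208, 8539 with TGF-β alone and 5570 in the control, but COL1A1 carried these differences. It stood at 103, 2935, 4705 and 2075 CPM in the same order, and the other 7 summed to 4329, 4263, 3834 and 3495 CPM. VIM made up most of the sum of these 7, at 4080, 4052, 3551 and 3290 CPM in the same order. VIM and THY1 were higher with BDS4 (4080 and 222 CPM) than with TGF-β alone (3551 and 119 CPM). PDGFRB (5.98 CPM, against 136), ACTA2 (19.2 CPM, against 27.0) and RGS5 (1.23 CPM, against 1.59) were lower. Hepatocyte markers summed to at most 3.76 CPM, endothelial markers to at most 11.8 CPM, macrophage markers to at most 35.6 CPM and cholangiocyte markers to at most 105 CPM in any library. Fewer cells of a type and less RNA per cell cannot be told apart in such libraries.

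FN1 (ENSG00000115414, chromosome 2, 215360440 to 215436172, minus strand, GRCh38) had the most counts of the members in every library. It stood at 2726 CPM with BDS4, 5299 CPM with RVX-208, 11140 CPM with TGF-β alone and 2001 CPM in the control. It ranked 19th, 2nd, 1st and 16th by counts, which favour long genes, among all genes in these libraries, in the same order. By the deposited FPKM its ranks were 285, 117, 48 and 354. By CPM the TGF-β library was the high one, the control the low one, and both compound libraries lay between them. The 10 members together took 0.453% of counts with BDS4, 1.06% with RVX-208, 1.89% with TGF-β alone and 0.545% in the control. FN1 made up 56.7% of the members' counts with BDS4, 49.5% with RVX-208, 59.5% with TGF-β alone and 38.9% in the control.

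**Figure D1:**
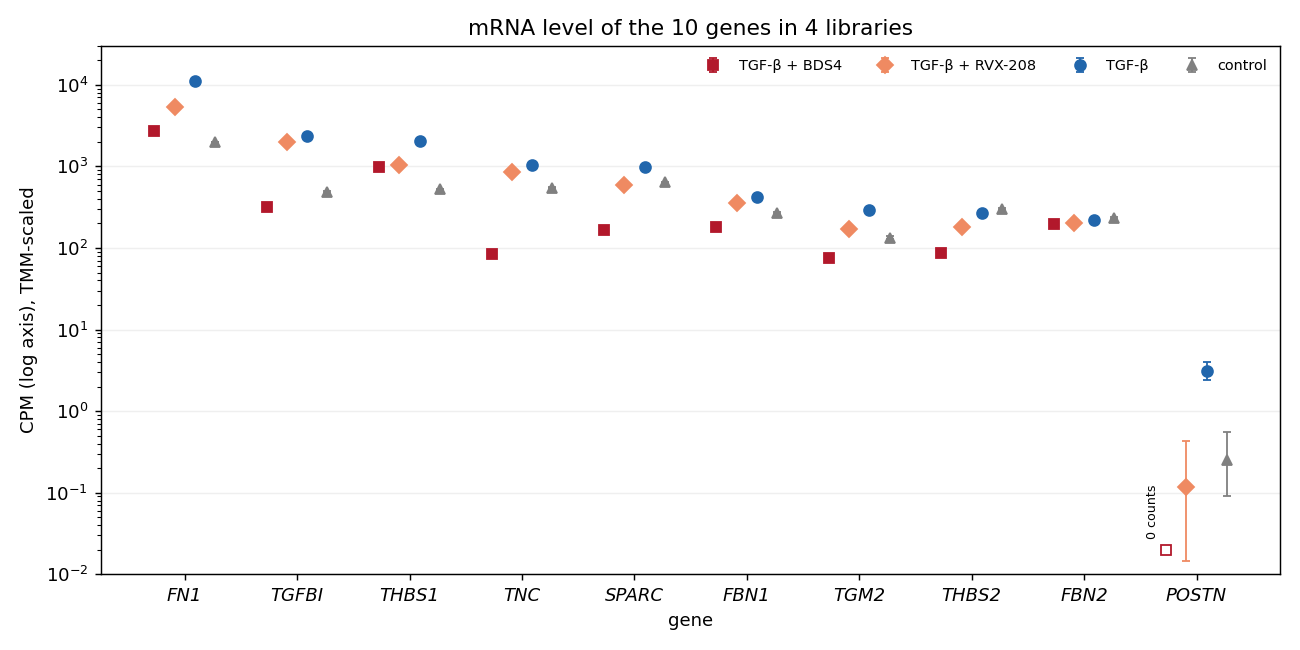
Level of each member (x axis, ordered by level with TGF-β alone) in CPM on a log axis in the library of TGF-β with BDS4, TGF-β with RVX-208, TGF-β alone and control, 1 point per library with its 95% exact Poisson interval. The TGF-β point is the highest for 8 members, and the BDS4 point of POSTN, drawn open at the bottom, stands for 0 counts.

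Among the matricellular genes, TNC (tenascin-C, a glycoprotein of healing wounds that alters attachment to fibronectin; chromosome 9, 115019578 to 115118257, minus strand) stood at 84.0 CPM with BDS4, 845 CPM with RVX-208, 1030 CPM with TGF-β alone and 551 CPM in the control. The BDS4 library was far below the other three, the control included. THBS1 (thrombospondin-1, which can activate latent TGF-β; chromosome 15, 39581079 to 39599466, plus strand) stood at 973 CPM with BDS4, 1026 CPM with RVX-208, 2035 CPM with TGF-β alone and 524 CPM in the control. Its level was nearly the same with either compound, in both cases between TGF-β and control. THBS2 (thrombospondin-2, which lacks the TGF-β-activating sequence of THBS1; chromosome 6, 169215780 to 169254044, minus strand) stood at 87.1 CPM with BDS4, 178 CPM with RVX-208, 267 CPM with TGF-β alone and 301 CPM in the control. SPARC (a collagen-binding glycoprotein; chromosome 5, 151661096 to 151687165, minus strand) stood at 166 CPM with BDS4, 594 CPM with RVX-208, 974 CPM with TGF-β alone and 640 CPM in the control. THBS2 was highest in the control and SPARC with TGF-β alone, and both were lowest with BDS4.

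TGFBI and POSTN encode relatives with fasciclin domains that bind integrins and matrix proteins. TGFBI (named for its induction by TGF-β; chromosome 5, 136028895 to 136063818, plus strand) stood at 318 CPM with BDS4, 2020 CPM with RVX-208, 2347 CPM with TGF-β alone and 486 CPM in the control. The libraries formed a high pair, TGF-β with and without RVX-208, and a low pair, BDS4 and control. POSTN (periostin; chromosome 13, 37562583 to 37598844, minus strand) had 0 counts with BDS4, 2 counts with RVX-208, 69 counts with TGF-β alone (3.12 CPM) and 6 counts in the control. A count of 0 allowed up to 0.147 CPM in the BDS4 library by the limit of 3 counts, and 0.181 CPM by the Poisson interval used for the other levels.

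FBN1 (fibrillin-1, the main microfibril protein; chromosome 15, 48408306 to 48645849, minus strand) stood at 181 CPM with BDS4, 360 CPM with RVX-208, 424 CPM with TGF-β alone and 268 CPM in the control. FBN2 (fibrillin-2, best known from developing tissue; chromosome 5, 128257909 to 128659185, minus strand) stood at 196 CPM with BDS4, 203 CPM with RVX-208, 218 CPM with TGF-β alone and 233 CPM in the control. FBN2 was the member that varied least, with BDS4 lowest and control highest. TGM2 (transglutaminase 2, which joins glutamine to lysine side chains and also acts beside integrins as a fibronectin receptor; chromosome 20, 38127387 to 38166578, minus strand) stood at 75.2 CPM with BDS4, 172 CPM with RVX-208, 288 CPM with TGF-β alone and 134 CPM in the control. Like FN1, TGM2 was highest with TGF-β alone, but with BDS4 it lay below the control. Of the 60 ratios that the 10 members give between pairs of libraries with TMM scaling, 57 had a counting interval that excluded 1. The other 3 were BDS4 against RVX-208 for FBN2 and POSTN, and RVX-208 against control for POSTN.

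Levels of different members can be set side by side only per length, and the length used matters. The deposited FPKM of FN1 implied a gene length of 30202 bases, which is 3.39 times the longest coding transcript of GENCODE 29 (8905 bases) and above its merged exons (17315 bases). For TGFBI the implied length was 14115 bases, 5.03 times the longest coding transcript, and for THBS1 11600 bases, 1.49 times. On the deposited FPKM scale in the TGF-β library, FN1 stood at 373, THBS1 at 177, TGFBI at 168 and SPARC at 142. Per kilobase of the longest coding transcript, FN1 stood at 1251 CPM, TGFBI at 837, SPARC at 263 and THBS1 at 262. FN1 led on both scales in that library, while THBS1 stood above TGFBI on the first scale and below it on the other. With RVX-208, TGFBI stood at 721 CPM per kilobase of the longest coding transcript and FN1 at 595, but at 142 and 174 FPKM on the deposited scale. The count table holds 1 value per gene, so fibronectin splice forms were not analysed here.

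TGF-β alone was set against the control to see which members differed after 24 h. Where TGF-β is said to raise a member, the member was higher in this comparison, in which vehicle cannot be told apart from TGF-β. FN1 rose 5.57-fold (5.51 to 5.62), TGFBI 4.83-fold (4.73 to 4.92), THBS1 3.88-fold (3.81 to 3.96) and TGM2 2.15-fold (2.06 to 2.25). POSTN rose 12.4-fold (5.43 to 35.1) on few counts. In all, 5 of 10 members rose and 0 fell, against 5.32% of all genes higher and 4.37% lower. Without POSTN these were 4 of 9. The median log2 ratio (prior count 2) of the members was 1.0, or 0.90 without POSTN, against -0.01 for all genes.

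The other 5 members did not reach 2-fold. TNC was 1.87-fold higher (1.83 to 1.91), FBN1 1.58-fold higher (1.53 to 1.63) and SPARC 1.52-fold higher (1.49 to 1.55). TNC was thus the member closest below the 2-fold line and TGM2 the closest above it. THBS2 and FBN2 had ratios of 0.885 (0.855 to 0.916) and 0.936 (0.900 to 0.973). These were the members with a lower level in the TGF-β library. An exon stretch of TGM2 (394 bases, 4.90% of its exon bases) overlaps RPRD1B on the opposite strand. The library kit keeps strand, but whether the counting used it was not given in the labels. As an alternative chosen after the data were seen, the RPRD1B counts were added to those of TGM2 in full. The log2 ratio of the summed counts was 0.92, short of the rule. This sum is a value for both genes together and cannot show how many reads of the shared bases were counted wrongly.

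**Figure D2:**
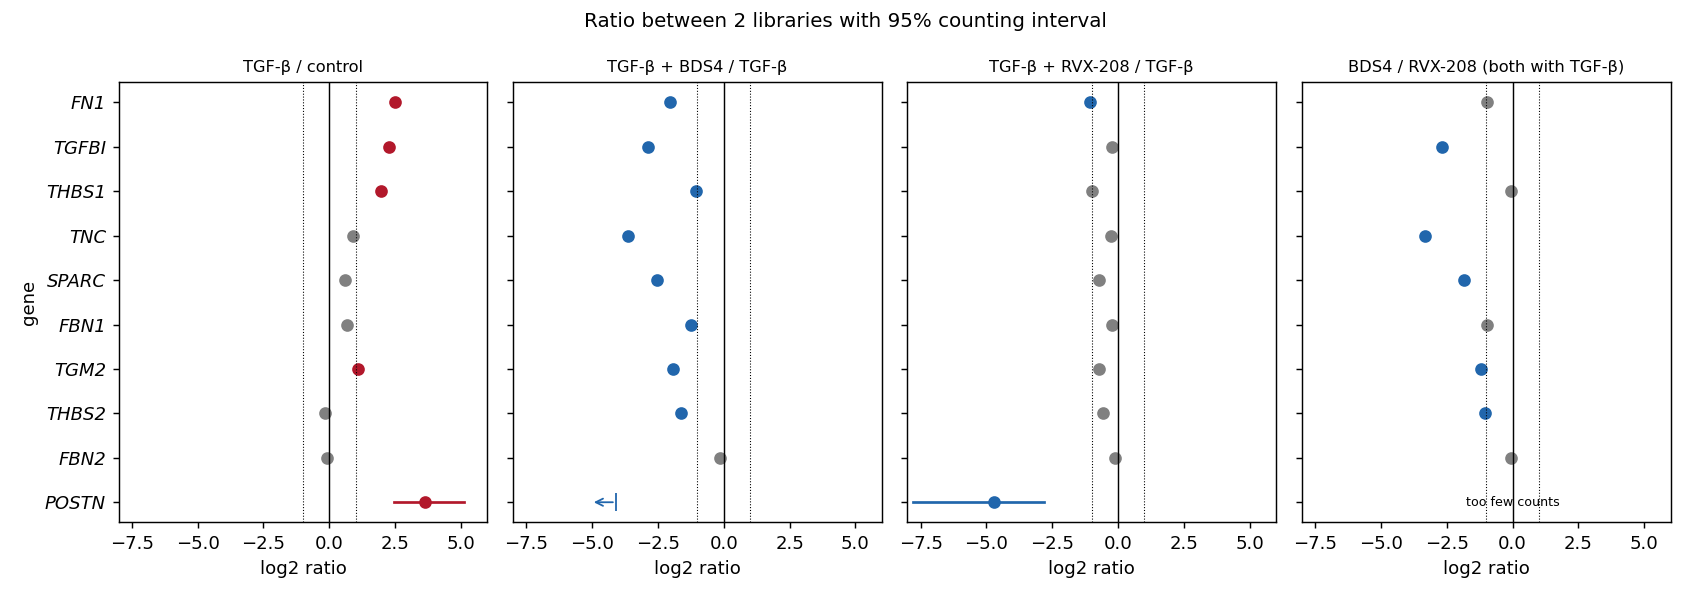
Log2 ratio of each member (rows) between pairs of libraries (panels), with the 95% counting interval as a line where wider than the point, red where the member rose and blue where it fell by the 2-fold rule marked with dotted lines. The arrow for POSTN starts at the end of its counting interval, since its ratio was 0, and 9 of 10 members lie to the left of the -1 line or at the arrow in the panel of BDS4 against TGF-β.

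Adding BDS4 to TGF-β was compared with TGF-β alone to see which members the compound lowered or raised. TNC fell 12.3-fold (11.7 to 12.9), TGFBI 7.39-fold (7.20 to 7.59), SPARC 5.85-fold (5.65 to 6.07) and FN1 4.09-fold (4.05 to 4.13). TGM2 fell 3.83-fold (3.63 to 4.06), THBS2 3.06-fold (2.90 to 3.23), FBN1 2.34-fold (2.25 to 2.43) and THBS1 2.09-fold (2.06 to 2.13). For the summed counts of TGM2 and RPRD1B the log2 ratio was -1.10, still past the rule. POSTN, with 0 counts against 69, was at least 16.8-fold lower by the end of its counting interval. FBN2 had a ratio of 0.901 (0.864 to 0.94). In all, 9 of 10 members fell and 0 rose, against 17.7% of all genes lower and 14.5% higher, and without POSTN 8 of 9 fell. The members' median log2 ratio was -1.98, or -1.94 without POSTN, against -0.01 for all genes. The size of the bound for POSTN does not move the median of the 10.

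The order of the falls was not the order of the TGF-β changes. TNC and SPARC, which TGF-β had left under 2-fold, had 2 of the 3 largest falls among the 9 members other than POSTN, while THBS1, which TGF-β raised 3.88-fold, had the smallest fall among the 8. Beside these falls, the share of mitochondrial ribosomal RNA was 0.903% with BDS4, 0.230% with RVX-208, 0.248% with TGF-β alone and 0.212% in the control library. The 13 mitochondrial mRNAs took 0.891% of counts with BDS4, 1.48% with RVX-208, 1.49% with TGF-β alone and 1.47% in the control. The part of these differences in the members' values was not tested.

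RVX-208 with TGF-β was set against TGF-β alone in the same way. FN1 fell 2.10-fold (2.09 to 2.12), and POSTN, at 2 counts against 69, had a ratio of 0.0380 (0.00451 to 0.143). These 2 of 10 members fell and 0 rose, against 5.25% of all genes lower and 2.94% higher, and without POSTN 1 of 9 fell. THBS1 was 1.98-fold lower (1.95 to 2.02), just short of the rule, and passed it under total-count scaling (log2 ratio -1.02). TGM2 was 1.67-fold lower (1.60 to 1.75), SPARC 1.64-fold lower (1.60 to 1.68) and THBS2 1.5-fold lower (1.43 to 1.56). TNC, FBN1, TGFBI and FBN2 had ratios of 0.820 (0.803 to 0.838), 0.848 (0.821 to 0.876), 0.861 (0.849 to 0.873) and 0.933 (0.893 to 0.975). All 10 members had a lower level with RVX-208 than with TGF-β alone. Their median log2 ratio was -0.65, or -0.58 without POSTN, against -0.000757 for all genes.

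BDS4 and RVX-208, both given at 5 µM with TGF-β for 24 h, were compared directly for the 10 members. TNC was 10.1-fold lower with BDS4 than with RVX-208 (9.57 to 10.6), TGFBI 6.36-fold (6.20 to 6.54), SPARC 3.57-fold (3.43 to 3.71), TGM2 2.29-fold (2.15 to 2.44) and THBS2 2.05-fold (1.93 to 2.17). These 5 of 10 fell by the rule and 0 rose, against 13.1% of all genes lower and 11.7% higher. FBN1 was 1.98-fold lower (1.90 to 2.07) and FN1 1.94-fold lower (1.92 to 1.96), and both passed the rule under total-count scaling (log2 ratios -1.05 and -1.03). That scaling also moved the median log2 ratio of all genes, to -0.07. The summed counts of TGM2 and RPRD1B had a log2 ratio of -0.42, short of the rule. THBS1 had a ratio of 0.948 (0.929 to 0.968) and FBN2 of 0.966 (0.922 to 1.011). With TMM scaling the compounds therefore stood within counting error of each other for FBN2, close for THBS1 and furthest apart for TNC and TGFBI. The log2 ratio of FBN2 was -0.05 with TMM and -0.12 with total-count scaling, so its place within counting error depends on the scaling. POSTN had too few counts with either compound for a fold.

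Set against the control, the BDS4 library held 4 of 10 members lower and 0 higher, where 18.2% of all genes were lower and 14.9% higher. TNC was 6.56-fold lower (6.24 to 6.90), SPARC 3.85-fold (3.71 to 4.0) and THBS2 3.46-fold (3.28 to 3.65). POSTN had 0 counts with BDS4, against 6 in the control, and its interval reached to 1.01-fold lower. Its call ended with DESeq2 size factors, and without it 3 of 9 members were lower. TGM2 was 1.78-fold lower (1.68 to 1.89), a difference that passed the rule under total-count scaling (log2 ratio -1.0). The summed counts of TGM2 and RPRD1B had a log2 ratio of -0.18. TGFBI was 1.53-fold lower (1.49 to 1.58) and FBN1 1.48-fold lower (1.42 to 1.54). THBS1 was 1.86-fold (1.81 to 1.90) and FN1 1.36-fold (1.35 to 1.38) above the control. Of the 5 members that TGF-β had raised, FN1 and THBS1 thus stood above the control level, TGFBI and TGM2 below it, and POSTN had no counts with BDS4.

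With RVX-208, 2 of 10 members were higher than in the control and 0 lower, where 5.39% of all genes were higher and 6.88% lower. TGFBI was 4.15-fold higher (4.07 to 4.24) and FN1 2.65-fold higher (2.62 to 2.68). THBS1 was 1.96-fold higher (1.91 to 2.0), TNC 1.53-fold (1.5 to 1.57), FBN1 1.34-fold (1.29 to 1.39) and TGM2 1.29-fold (1.22 to 1.35). SPARC, FBN2 and THBS2 had ratios of 0.927 (0.904 to 0.951), 0.873 (0.836 to 0.911) and 0.592 (0.567 to 0.618). SPARC was thus back near the control level, while TGFBI stayed close to its level with TGF-β alone. Comparisons with TGF-β alone or with the control share those libraries, so their values for the same member are not independent.

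Within a library, the level of a gene relative to its paralogue does not depend on the scaling between libraries. Per kilobase of the longest coding transcript, THBS1 stood at 8.35 times THBS2 with BDS4 (7.95 to 8.77), 4.30 times with RVX-208 (4.14 to 4.47), 5.70 times with TGF-β alone (5.55 to 5.86) and 1.30 times in the control (1.26 to 1.34). The 3 libraries with TGF-β all lay above the control. FBN1 stood at 0.876 times FBN2 with BDS4 (0.838 to 0.917), 1.68 times with RVX-208 (1.61 to 1.75), 1.85 times with TGF-β alone (1.78 to 1.91) and 1.09 times in the control (1.05 to 1.13). For the fibrillins the BDS4 library lay below the control and the other libraries with TGF-β above it. The absolute ratio depends on the lengths chosen, and on the deposited FPKM scale THBS1 stood at 4.14 times THBS2 in the control, but the order of the 4 libraries does not.

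**Figure D3:**
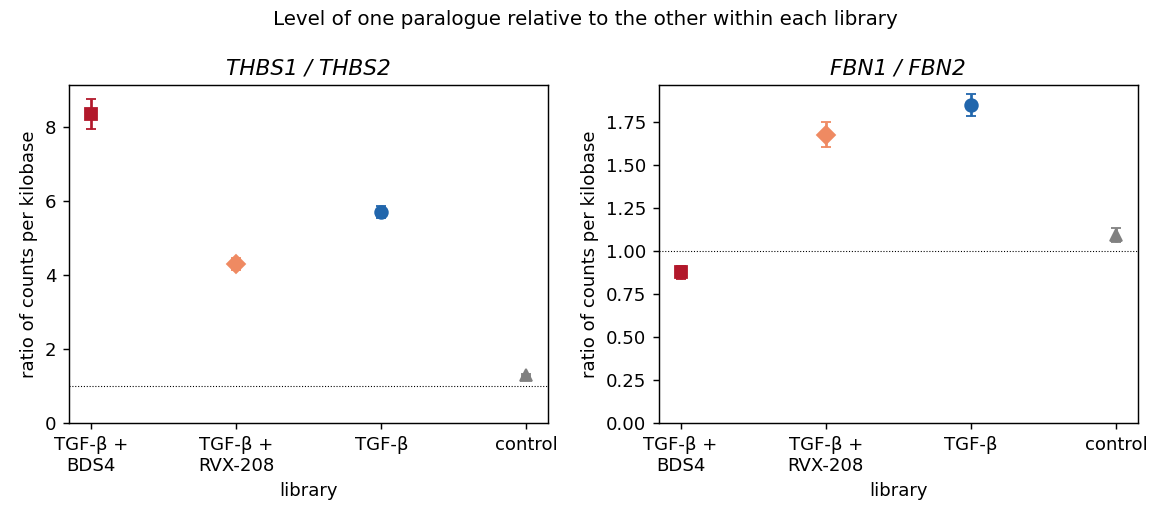
Ratio of counts per kilobase of longest coding transcript between paralogues (y axis) in each library (x axis), with 95% counting intervals, for THBS1 over THBS2 at the left and FBN1 over FBN2 at the right. THBS1 over THBS2 is 1.30 in the control and 4.30 or more in the other libraries, and FBN1 over FBN2 is 0.876 with BDS4 and 1.85 with TGF-β alone.

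Receptors and assembly partners of these proteins were described from a list of 16, of which 12 passed the filter. With TGF-β, 2 of 12 rose and 0 fell (median log2 ratio 0.37), against 5.32% of all genes higher and 4.37% lower. ITGB5, an integrin subunit that pairs with αv to bind vitronectin, reached 100 CPM, against 40.8 CPM in the control (2.46-fold). The other riser, ITGB6, named after its values were seen like the other genes under 5 CPM here, had 35 counts with TGF-β, against 2 in the control. ITGB6 passed the filter only through the TGF-β library (1.59 CPM), so the filter fixed its differences from that library. Without it 1 of 11 rose (median 0.25). With BDS4, 5 of 12 fell relative to TGF-β and 0 rose (median -0.71), against 17.7% of all genes lower and 14.5% higher. Without ITGB6, 4 of 11 fell (median -0.59). ITGA5, the α-subunit of the main fibronectin receptor, stood at 129 CPM with BDS4, against 540 CPM with TGF-β alone, and fell 4.17-fold. ITGA4, of another fibronectin receptor, fell 4.88-fold to 5.44 CPM, ITGB5 4.54-fold to 22.1 CPM, and LRP1, an endocytic receptor that clears thrombospondins, 2.52-fold to 127 CPM, and ITGB6 had 0 counts. ITGB1, the shared β-subunit, stood at 1438 CPM with BDS4, 1405 with RVX-208, 1315 with TGF-β alone and 887 in the control. SDC4 (457 CPM with BDS4, against 253 with TGF-β alone), ITGB3 (162, against 92.2) and CD47 (68.8, against 63.4) were also higher with BDS4, short of the rule. ITGA3 (1067 CPM, against 1604), ITGAV (162, against 172) and ITGB8 (2.06, against 3.76) were lower, short of the rule. With RVX-208, 1 of 12 fell relative to TGF-β, ITGB6 with 6 counts against 35 (median -0.15), and 0 rose. Without ITGB6 this was 0 of 11 (median -0.13), against 5.25% of all genes lower, and ITGA5 stood at 480 CPM.

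Elastic fibre and microfibril partners of the fibrillins made a list of 17, of which 12 passed the filter. ELN, which encodes elastin, had at most 1 count in any library. With TGF-β, 2 of 12 rose and 0 fell (median log2 ratio 0.19), where 5.32% of all genes were higher. LTBP2, a relative of the fibrillins, stood at 212 CPM with TGF-β, against 18.0 CPM in the control (11.8-fold), and EFEMP1 (fibulin-3) at 206 CPM, against 74.6 CPM (2.76-fold). With BDS4, 7 of 12 fell relative to TGF-β alone and 0 rose (median -1.05), where 17.7% of all genes were lower and 14.5% higher. LTBP2 fell 26.2-fold to 8.09 CPM, EFEMP1 4.44-fold to 46.3 CPM, LTBP3, which holds latent TGF-β, 3.32-fold to 53.3 CPM, EFEMP2 (fibulin-4) 2.64-fold to 35.2 CPM and FBLN2 2.58-fold to 81.6 CPM. The other 2 were FBLN5, at 9.46 CPM against 20.3, and EMILIN1, at 18 counts against 41. With RVX-208, 1 of 12, LTBP2, fell relative to TGF-β alone, 3.05-fold to 69.4 CPM (median -0.38), where 5.25% of all genes were lower.

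Other matricellular genes outside the CCN family made a list of 16, of which 9 passed the filter. With TGF-β, 2 of 9 rose and 1, VTN (vitronectin), fell to 45 counts, against 111 in the control (median 0.34), beside 5.32% of all genes higher and 4.37% lower. SPOCK1 (testican-1, a proteoglycan of the SPARC family) stood at 545 CPM with TGF-β, against 90.8 CPM in the control (6.0-fold), and IGFBP7, which binds insulin-like growth factors, at 114 CPM, against 30.1 CPM (3.79-fold). With BDS4, 4 of 9 fell relative to TGF-β and 1 rose (median -0.44), beside 17.7% of all genes lower and 14.5% higher. SPOCK1 fell 7.63-fold to 71.3 CPM, IGFBP7 2.68-fold to 42.6 CPM and the thrombospondin gene THBS3 2.44-fold to 2.99 CPM. THBS4 fell to 1 count with BDS4, against 31 with TGF-β alone, and SPOCK2 had 33 counts, against 10. SPOCK2 passed the filter only through the BDS4 library (1.62 CPM), so the filter fixed its rise. Without it 4 of 8 fell and 0 rose, and the median was -0.85. With RVX-208, 1 of 9, THBS4 with 8 counts, fell relative to TGF-β and 0 rose (median -0.38), beside 5.25% of all genes lower, and SPOCK1 stood at 344 CPM. Of 8 other transglutaminase and factor XIII genes, TGM1 alone passed the filter, at 2.11 CPM with BDS4, 2.85 with RVX-208, 3.17 with TGF-β alone and 2.68 in the control. TGM2 thus had the most counts of these genes in every library.

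**Figure D4:**
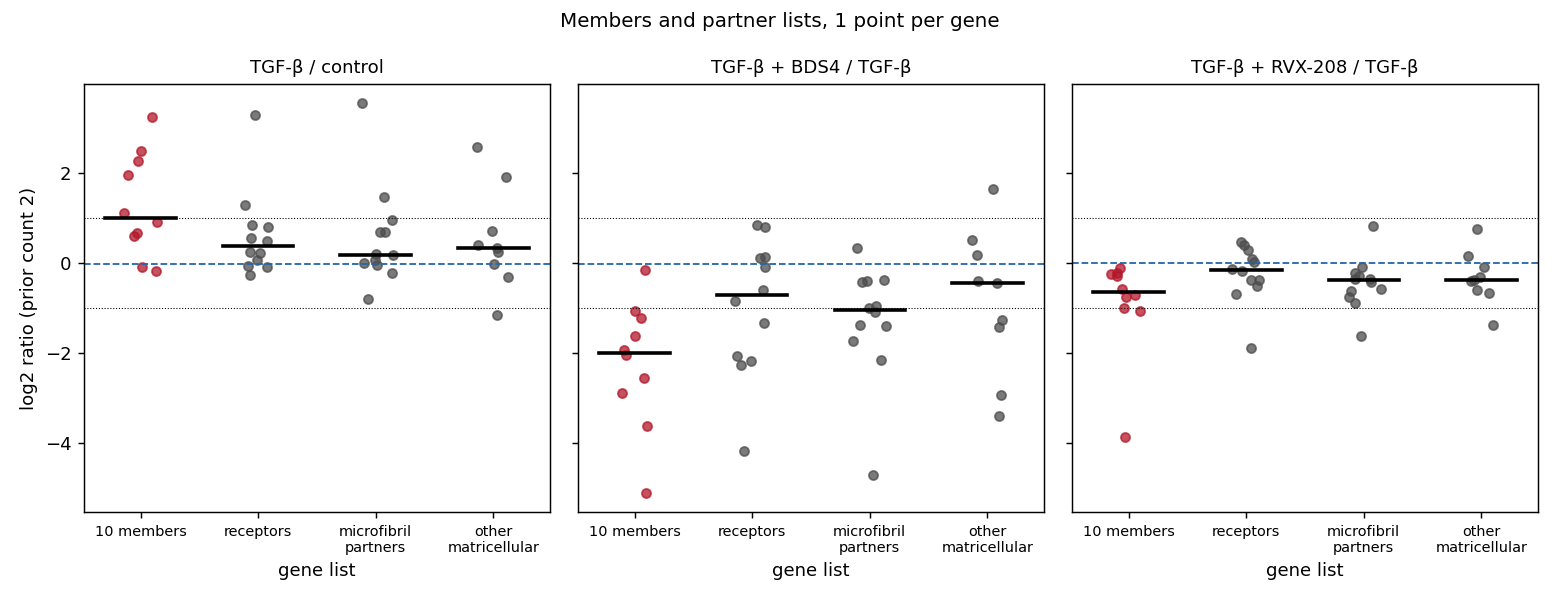
Log2 ratio with a prior count of 2 (y axis) for each of the 10 members and for the genes past the filter in 3 partner lists (x axis), 1 point per gene, in 3 comparisons, with list medians as black bars, the median of all genes as a dashed line and 2-fold as dotted lines. The members' median is 1.0 with TGF-β over control, -1.98 with BDS4 over TGF-β and -0.65 with RVX-208 over TGF-β. Without POSTN these medians are 0.90, -1.94 and -0.58. Points of genes with 0 counts, such as POSTN with BDS4, are set by the prior count.

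The genes whose profile was most like that of FN1 were found among 4800 protein-coding genes with at least 50 CPM in the TGF-β library, by the Euclidean distance of mean-centred log2 CPM over the 4 libraries. SH3PXD2A (TKS5, a scaffold protein of invadopodia) was nearest, at a distance of 0.08, with 79.4 CPM with BDS4, 154 with RVX-208, 335 with TGF-β alone and 61.8 in the control. MSRB3 (a methionine sulfoxide reductase), DSP (desmoplakin, of desmosomes), PODXL (podocalyxin) and IGFBP7 followed at 0.47, 0.53, 0.54 and 0.55. Of the members, THBS1 was nearest to FN1, at a distance of 0.77, and ranked 13th among these genes. TNC was the furthest, at 2.33. All these distances rest on the same 4 libraries and carry no test.

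**Figure D5:**
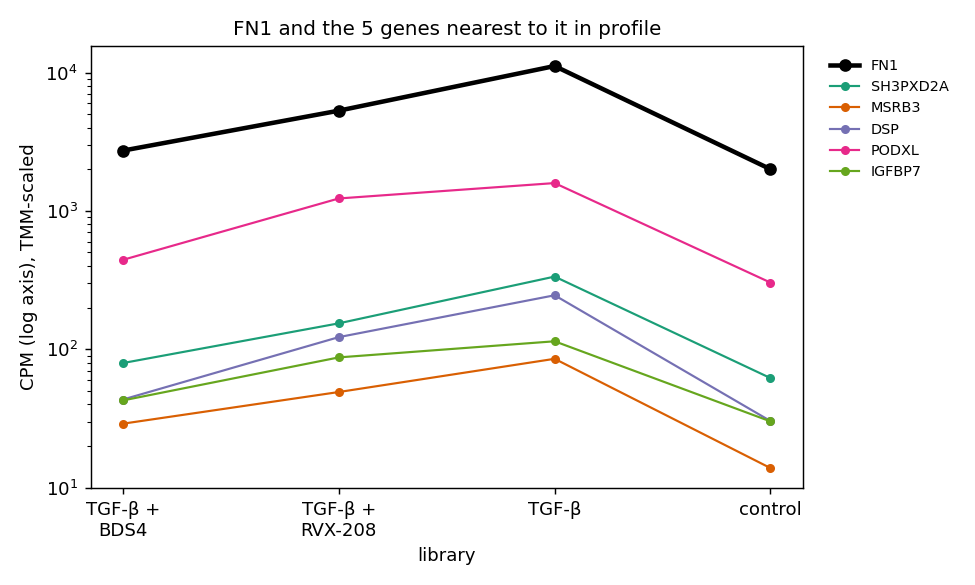
CPM on a log axis (y axis) in each library (x axis) for FN1 in black and the 5 genes nearest to it in profile, 1 point per library. SH3PXD2A runs nearly parallel to FN1, at 79.4 CPM with BDS4, 154 CPM with RVX-208, 335 CPM with TGF-β alone and 61.8 CPM in the control.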

How the data were processed

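Raw gene counts and FPKM values were deposited by the authors for 4 libraries. Per the series' design text the deposited FPKM values were made with StringTie 1.3.0. CASAVA 1.8, TopHat2 2.0.6 and GRCh38 are named in the submitters' processing notes. For the deposited counts, the program, annotation release and use of strand were not given in the labels or notes. Columns were matched to groups through the sample descriptions.

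TMM factors from edgeR 4.0.16 (R 4.3.3), by which library totals were scaled, were 0.943 (BDS4), 0.989 (RVX-208), 1.01 (TGF-β) and 1.06 (control). Genes under 1 CPM in every library were left out. Ratios carry 95% conditional exact (Clopper-Pearson) intervals, shares of counts and floors of 3 counts cover counting error only, and no test was possible with 1 library per group. Alternatives were total-count scaling, DESeq2 1.42.0 size factors, no filter, a 1.5-fold rule and the deposited FPKM, whose ratios repeat total-count scaling. Gene models came from GENCODE 29 and promoters from RefSeq. Python 3.11.15 was used.

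All members are named. Up to 5 called genes per list and comparison with at least 5 CPM are named, by size of change, beside a few others chosen after their values were seen. The members and lists were chosen with earlier results of these data known.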

Additional observations from a re-analysis of the deposited data

How the results depend on the processing

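No paired analysis was possible because each group has 1 library. For the single members, 0 of the alternatives turned a direction. With DESeq2 size factors 59 of 60 member ratios kept their side of the 2-fold rule and with total-count scaling 56 of 60, the exceptions being those named above. Ratios of the deposited FPKM repeated total-count scaling and were no separate check. The log2 ratio of FN1 for TGF-β over control was 2.41 on both. FPKM ratios, taken without prior count or interval, gave the same exceptions, and POSTN against control with RVX-208 (log2 ratio -1.18, on 2 and 6 counts). POSTN with BDS4, listed at 0, gave no FPKM ratio. No member shares exon bases with a gene on the same strand in GENCODE 29, so summing such genes could not be run. Total-count scaling shifted the median log2 ratio of all genes to -0.11 (BDS4 over TGF-β), -0.18 (BDS4 over control) and -0.10 (RVX-208 over control). It was -0.08 for TGF-β over control, -0.07 for BDS4 over RVX-208 and -0.03 for RVX-208 over TGF-β.

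With total-count scaling the members' median log2 ratio was 0.93 for TGF-β over control, -2.08 for BDS4 over TGF-β, -0.89 for BDS4 over control and 0.29 for RVX-208 over control. With DESeq2 size factors it was -1.96 for BDS4 over TGF-β. The mean in place of the median was 1.30 for TGF-β over control, -2.22 for BDS4 over TGF-β, -0.88 for RVX-208 over TGF-β, -1.32 for BDS4 over RVX-208 and -0.93 for BDS4 over control. These medians and means include POSTN.

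A 1.5-fold rule gave as many calls or more by construction, out of the 16099 genes past the filter. For TGF-β over control 8 members and 1627 genes were higher, and 0 members and 1447 genes lower. For BDS4 over TGF-β 0 members and 3939 genes were higher, and 9 members and 4262 genes lower. For RVX-208 over TGF-β 5 members and 1682 genes were lower, and 0 members and 1063 genes higher. For BDS4 over RVX-208 0 members and 3388 genes were higher, and 7 members and 3513 genes lower. For BDS4 over control 1 member and 4037 genes were higher, and 6 members and 4430 genes lower. For RVX-208 over control 4 members and 1727 genes were higher, and 1 member and 2059 genes lower. Without the filter on low counts, 10 of 48 list counts moved from 0 or by over 1.5 times, each by 1 gene.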
